A study of Mus musculus with 1677 samples.

Results

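Serotonin and the catecholamines are made from amino acids by short chains of enzymes, and the 8 genes described here encode most of both chains. They are Tph1, Tph2, Th, Ddc, Dbh, Pnmt, Slc18a1 and Maoa, and all 8 were found by symbol among the 24533 genes of the deposited count table. The group was put together with results of these data known, and its members were chosen by the TRF against ALF difference of Tph2 in both white fat depots, where it was far lower. That contrast is therefore given here as a description with no test, and it is left out of every count of calls.

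Tryptophan hydroxylase sets the rate of serotonin synthesis. Tph1 encodes the form known from the gut, the pineal gland and mast cells, and Tph2 the form known from serotonin neurons of the brainstem. Tyrosine hydroxylase (Th) sets the rate of catecholamine synthesis, and aromatic amino acid decarboxylase (Ddc) then makes serotonin or dopamine. Dopamine beta-hydroxylase (Dbh) makes noradrenaline and Pnmt makes adrenaline, which the chromaffin cells of the adrenal medulla release. Slc18a1 encodes the vesicular monoamine transporter of endocrine cells, and Maoa an enzyme of the mitochondrial outer membrane that breaks monoamines down.

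The libraries came from 22 tissues of wild-type C57Bl/6 mice, a strain the labels also write as C57BL/6J. The animals were bought at 10 weeks of age and kept on chow for 2 weeks in 12 h of light and 12 h of dark. Both groups then ate a Western diet (45% fat, 17% sucrose) for 7 weeks, either at all hours (ad libitum feeding, ALF) or for 9 h of the dark phase (time-restricted feeding, TRF). Food was there between ZT13 and ZT22, where ZT counts hours from lights on. Tissue was collected at 12 clock times 2 h apart, mostly as 2 libraries per tissue, clock time and group, giving 517 ALF and 518 TRF libraries of mRNA. No group ate chow throughout, and the labels do not say whether the replicates of a group came from separate animals, so p-values measure the spread between these libraries. Because whole tissues were sequenced, fewer cells of a type and less RNA per cell cannot be told apart.

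The libraries held a median of 11.3 M (mega) counts each, the shallowest 2.26 M and the deepest 501 M. The defining markers of each labelled tissue had medians of at least 3.6 CPM (counts per M counts) in it. Single libraries of some tissues lacked one: Agrp was under 1 CPM in 10 of 46 arcuate libraries, Grp in 3 of 46 of the dorsomedial nucleus, and Hcrt and Rspo2 in 2 of 46 of hypothalamus and amygdala. By its whole profile, the library labelled as one tissue was closest to another tissue in 15 cases. These were 5 ALF libraries of inguinal fat (closest to epididymal fat), 4 of kidney medulla (closest to kidney cortex), 1 each of duodenum and ileum (closest to each other), and 2 each of the arcuate and the dorsomedial nucleus. A further 3 libraries exceeded 100 M counts. Leaving all of these out moved the number of calls for the 8 genes from 23 to 24.

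For 6 of the 8 genes RefSeq (GRCm38.p6) gave promoters, and those of Th, Dbh and Tph2 are shown because the results turn on these genes. Each line holds the 250 bases before the annotated start, 5′ to 3′ on the strand of the gene. Capitals mark matches to 2 of 3 motifs that were searched on both strands: TGACGTCA (the cAMP response element) and GCGNGGGCG (the EGR motif), with N for any base. The third, the E-box CACGTG, had no match in the member promoters.
Th, chr7:142899996-142900245, minus strand: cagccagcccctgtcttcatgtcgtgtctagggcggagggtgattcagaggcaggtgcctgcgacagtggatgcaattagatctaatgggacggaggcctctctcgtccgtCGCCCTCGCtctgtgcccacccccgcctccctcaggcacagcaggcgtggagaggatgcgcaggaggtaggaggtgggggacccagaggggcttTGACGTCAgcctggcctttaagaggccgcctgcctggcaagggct
Dbh, chr2:27165257-27165506, plus strand: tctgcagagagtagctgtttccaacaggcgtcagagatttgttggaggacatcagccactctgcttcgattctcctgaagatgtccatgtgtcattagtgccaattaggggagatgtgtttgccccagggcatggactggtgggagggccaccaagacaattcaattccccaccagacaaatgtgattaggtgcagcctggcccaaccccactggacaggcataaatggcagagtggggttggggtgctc
Tph2, chr10:115185023-115185272, minus strand: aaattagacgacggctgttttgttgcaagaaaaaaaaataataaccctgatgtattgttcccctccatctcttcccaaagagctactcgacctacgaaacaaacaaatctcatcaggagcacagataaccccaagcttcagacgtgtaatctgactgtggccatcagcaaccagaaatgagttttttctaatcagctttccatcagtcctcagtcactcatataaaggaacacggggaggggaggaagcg
The Th window held 1 match to the cAMP response element, 45 bases before the start, and 1 to the EGR motif, 139 bases before it. Of 32851 mouse promoter windows of the same length, 1.55% held the first motif, 4.70% the second and 6.02% the E-box. The Dbh and Tph2 windows held none of the 3 motifs, which says only that these letters are not in these windows.

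Levels are given as CPM, the counts of a gene per M counts of its library, scaled within each tissue. Over both feeding groups, each gene had its own order of tissues, as the map of mean levels shows. Tph1 was highest along the gut, at 20.9 ± 5.88 CPM (SD, n = 48) in duodenum and 16.7 ± 4.29 in stomach, then 10.9 ± 2.46 in jejunum and 8.79 ± 2.73 in ileum. The gap between duodenum and stomach was under 1 SD, and stomach came first when all libraries were scaled together. Muscle followed at 4.62 ± 2.60 CPM. The suprachiasmatic nucleus came next at 3.81 CPM only through 1 ALF library at ZT20, with 149 CPM. In the same library Aanat, which makes the melatonin precursor from serotonin in the pineal gland, stood at 18.4 CPM, its highest value in the nucleus. Asmt, also a gene of melatonin synthesis, had no count in any library of the nucleus (23 ALF and 22 TRF). Whether that library held pineal tissue was not tested.

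Th, Dbh and Pnmt had one site far above the rest. In the adrenal gland Th stood at 1250 ± 897 CPM (SD, n = 48), Dbh at 1160 ± 539 and Pnmt at 406 ± 278. For Th the next tissues were parts of the hypothalamus, namely DMH (dorsomedial nucleus) at 56.8 ± 20.3 CPM, whole hypothalamus at 46.2 ± 12.4 and the arcuate nucleus at 40.5 ± 18.8. Those 3 did not differ beyond their spread. Dbh was next highest in jejunum at 4.12 ± 1.21 CPM and heart at 3.36 ± 1.33, which swapped places when all libraries were scaled together. Pnmt stood at 0.911 ± 0.542 CPM in lung, 0.877 ± 0.365 in muscle and 0.689 ± 0.268 in heart. In liver, Th, Dbh, Pnmt and Tph2 had no count in 48 libraries, which allows up to 0.0028 CPM of each over the pooled counts. This limit covers counting error only.

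Ddc passed the filter in 19 of 22 tissues, with means of 188 ± 45.7 CPM in duodenum and 169 ± 51.9 in jejunum, and between 65.6 and 103 CPM in the adrenal gland, ileum, arcuate nucleus, kidney cortex, whole hypothalamus, liver, DMH and kidney medulla. Liver moved up to 153 CPM and the third place when all libraries were scaled together. Ddc was lowest in muscle, at 0.267 ± 0.181 CPM. Slc18a1 was highest in kidney cortex at 357 ± 44.9 CPM and kidney medulla at 237 ± 65.4, above the adrenal gland at 126 ± 32.9, and each of these gaps exceeded the larger SD. Maoa passed the filter in all 22 tissues and was highest in jejunum (1210 ± 518 CPM), ileum (1110 ± 404) and duodenum (735 ± 384), and the adrenal gland followed at 270 ± 66.0.

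**Figure D1:**
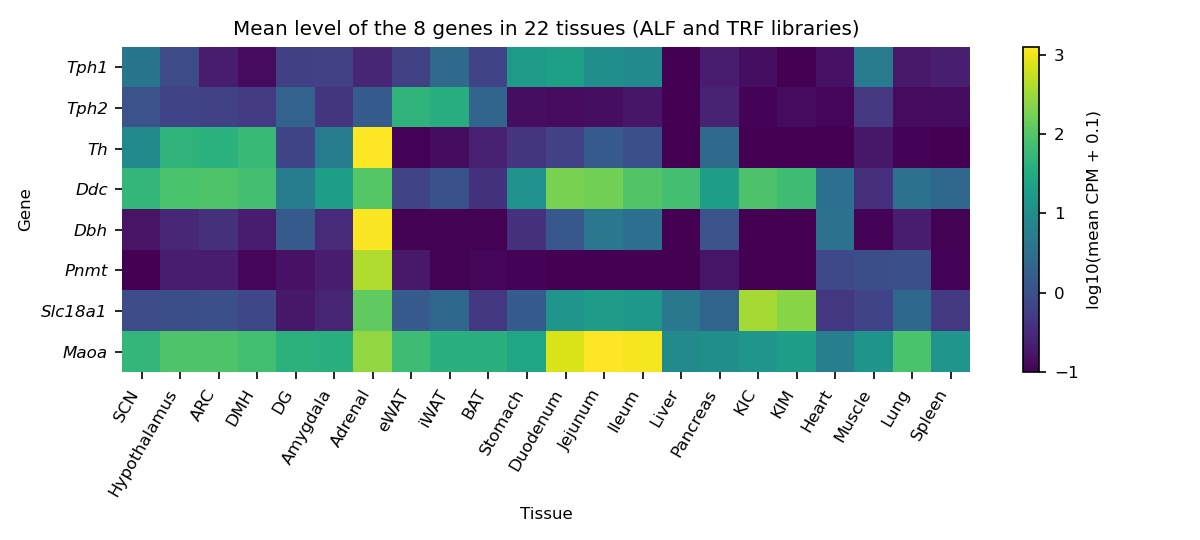
Mean level of each gene (rows) in each tissue (columns) over ALF and TRF libraries, as log10 of the mean CPM + 0.1, from dark (low) to yellow (high). Th, Dbh and Pnmt are brightest in the adrenal gland, Maoa in jejunum and ileum, Slc18a1 in kidney cortex, and Tph2 in the 2 white fat depots.

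Over these 22 tissues, the mean log2(CPM + 1) of Dbh was most closely followed by that of Tlx2 (Pearson r = 0.972), Phox2a (0.968) and St6galnac1 (0.959). Phox2a encodes a transcription factor of noradrenergic cells. For Pnmt the closest were Gpha2 (0.994), Txndc2 (0.989) and Hsd3b1 (0.987), the last a steroid enzyme of the adrenal cortex, and for Th they were Fam159a (0.934), Nr0b1 (0.922) and Acan (0.911). Slc18a1 went with Hao2 (0.946), Pyroxd2 (0.931) and Hsd3b2 (0.910), Ddc with Sema4g (0.901), Rab4a (0.891) and Nat8f4 (0.867), and Maoa with Tex14 (0.917), Bfsp1 (0.903) and Abcb1a (0.890). Tph1 had Pkp1 (0.925), Cyp2c65 (0.920) and 8430430B14Rik (0.916), and Tph2 had Mir6392 (0.958), Gm6936 (0.927) and 1700047G03Rik (0.927). Each r is over 22 tissue means, taken among 18336 genes, and a single tissue far above the others can set it.

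Tph2 lies on chromosome 10 (115078641 to 115185022, GRCm38). In epididymal fat (eWAT) it ranged from 0.866 to 174 CPM in the 24 ALF libraries, with a median of 79.5. In the 24 TRF libraries it ranged from 0.0971 to 280 CPM, with a median of 1.07. Inguinal fat (iWAT) gave 0.237 to 190 CPM, median 69.6, in ALF and 0 to 8.35 CPM, median 0.975, in TRF. So 20 of 24 ALF libraries of iWAT lay above every TRF library, while the other 4 lay among them. The log2 fold changes (TRF minus ALF, ± SE of the fit) were -5.09 ± 0.72 in eWAT and -5.17 ± 0.54 in iWAT. Within ZT14 to ZT22, when TRF mice had food, they were -6.01 ± 1.04 and -5.90 ± 0.84, and within ZT0 to ZT12 they were -4.32 ± 0.96 and -4.67 ± 0.70.

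In eWAT 2 libraries at ZT10 went against their labels. The library labelled TRF, ZT10, replicate 1 had 280 CPM of Tph2, the highest value in the study, and the library labelled ALF, ZT10, replicate 2 had 0.866 CPM. In iWAT the libraries with those same labels had 0.509 and 190 CPM, the other way round. Itgad went the same way, at 73.5 CPM in the eWAT library labelled TRF and 0.995 in the one labelled ALF, against 1.10 and 122 CPM in iWAT. Itgad is named further on because it followed Tph2 over the ALF libraries of both depots. Its ALF values are therefore not separate evidence on the labels. Without those 2 eWAT libraries the Tph2 log2 fold change in eWAT was -5.45 ± 0.53. They stay in the other values for eWAT given here. In iWAT the value was -4.99 ± 0.64 without the 5 libraries closest to eWAT.

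**Figure D2:**
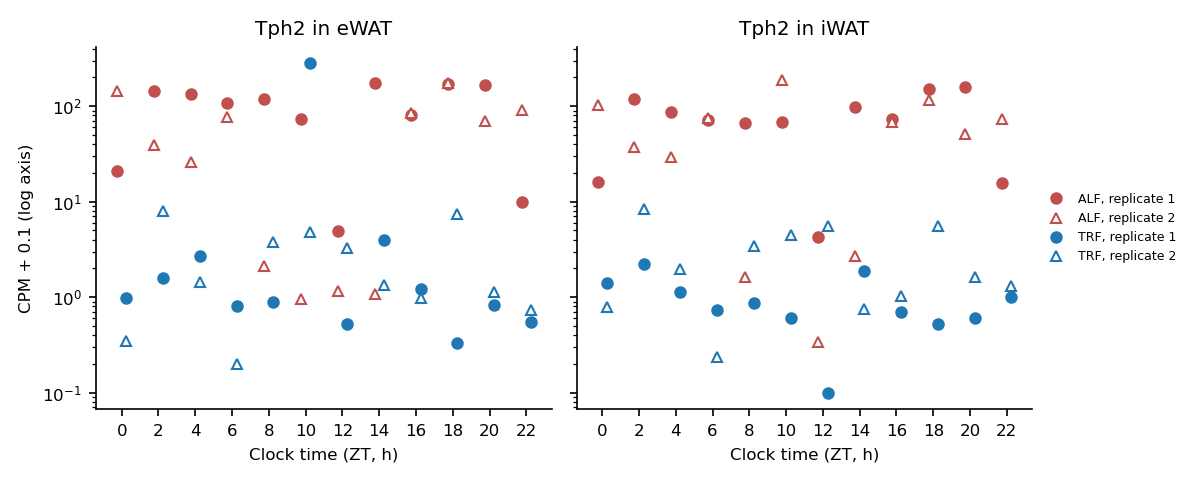
Tph2 in each library of eWAT (left) and iWAT (right) by clock time, as CPM + 0.1 on a log axis, with ALF in red, TRF in blue, replicate 1 as filled circles and replicate 2 as open triangles. Most ALF libraries lie above 10 CPM and most TRF libraries below it, and the eWAT library labelled TRF at ZT10 stands at 280 CPM.

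Within ALF, the same labels were low in both depots, except ZT10 replicate 2, described above, which was low in eWAT only. The other low ALF libraries of eWAT were those at ZT12 (4.88 and 1.07 CPM), ZT14 replicate 2 (0.982) and ZT8 replicate 2 (2.02). The libraries with the same labels in iWAT were low too, at 4.19, 0.237, 2.62 and 1.51 CPM. Over 24 pairs of ALF libraries with the same clock time and replicate number, Tph2 in eWAT and iWAT had Pearson r = 0.761 (log2 of CPM + 0.1; permutation p = 0.00013, adjusted 0.00078) and Spearman rho = 0.703 (permutation p = 0.00022, adjusted 0.00088). Leaving out the 2 pairs farthest from the median in eWAT gave r = 0.979, and leaving out only the ZT10 pair above gave rho = 0.935. The permutations shuffled libraries over all clock times, so a course over the day shared by both depots also counts in these p-values. Within clock times, where the replicates of one time are compared, r was 0.697 over 12 differences, with no test run. For comparison, the median rho of the 13867 genes tested in both depots was 0.156, and 1.71% of them reached that of Tph2.

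Among TRF libraries the same comparison gave rho = 0.678 (permutation p = 0.00037, adjusted 0.0011) and r = 0.441 (permutation p = 0.035, adjusted 0.084), and rho was 0.843 without the ZT10 pair. The median gene there had rho = 0.321, and 8.83% of genes reached Tph2. The labels do not say that equal numbers mark one mouse, but library names of eWAT and iWAT end in the same code in 21 of 24 ALF and 23 of 24 TRF pairs. The names of eWAT and brown fat (BAT) libraries did so in 23 of 24 ALF and 24 of 24 TRF pairs. There Tph2 had rho = -0.134 in ALF and 0.0278 in TRF. Codes of adrenal libraries were not compared. In all, 12 relations of Tph2 among eWAT, iWAT, BAT and adrenal gland were computed, and the adjusted values cover these.

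In the adrenal gland Tph2 was too low to pass the filter on counts, but it too was lower in TRF. Its ALF libraries ranged from 0 to 10.3 CPM of Tph2 with a median of 1.33, and its TRF libraries from 0 to 0.731 CPM with a median of 0.0431, 12 of 24 being at 0. Of the ALF libraries 16 lay above every TRF library, and the ratio of means was 20.3. Fitted without a filter on low counts, the log2 fold change was -4.23 ± 0.52 (edgeR, adjusted p = 4.3e-08), and DESeq2 gave -4.52 ± 0.66 (adjusted p = 1e-09).

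Across the 24 ALF pairs, Tph2 in the adrenal gland followed Tph2 in iWAT with r = 0.813 and rho = 0.928 (permutation p = 1e-05 for both, the smallest these permutations can give; adjusted 0.00012). Without the 2 farthest pairs r was 0.868, and within clock times it was 0.789. With eWAT the values were r = 0.616 and rho = 0.717 (permutation p = 0.0012 and 0.00016, adjusted 0.0048 and 0.00088), or rho = 0.932 without the ZT10 pair. Among TRF pairs the adrenal gland did not pass with iWAT (r = 0.464, rho = 0.344; permutation p = 0.023 and 0.1, adjusted 0.069 and 0.24) or with eWAT (r = 0.0815, rho = 0.169; permutation p = 0.72 and 0.43, adjusted 0.93 and 0.57). Adipocyte markers were present in the gland at a summed median of 3290 CPM in ALF (2310 to 8680) and 3310 in TRF (1640 to 9230). Of the 10 markers 1 rose and 3 fell, and Lep, the fat hormone leptin, had medians of 376 CPM in ALF and 39.3 in TRF, Adipoq 323 and 275, and Plin1 178 and 138. Within ALF the summed markers and Tph2 had rho = 0.449 (permutation p = 0.029) and r = 0.3 (permutation p = 0.15). Within TRF they had rho = -0.0609 (permutation p = 0.78) and r = -0.045 (permutation p = 0.84). These p-values are not adjusted, and the part of fat cells in adrenal Tph2 was not tested.

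In BAT, Tph2 ranged from 0 to 24.3 CPM in ALF (median 0.627) and from 0 to 6.30 in TRF (median 0.535), and the groups overlapped. The log2 fold change was -0.32 ± 0.54 (edgeR, adjusted p = 0.81). No relation of BAT with the other 3 tissues passed, with adjusted p from 0.26 to 0.94 over both measures.

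**Figure D3:**
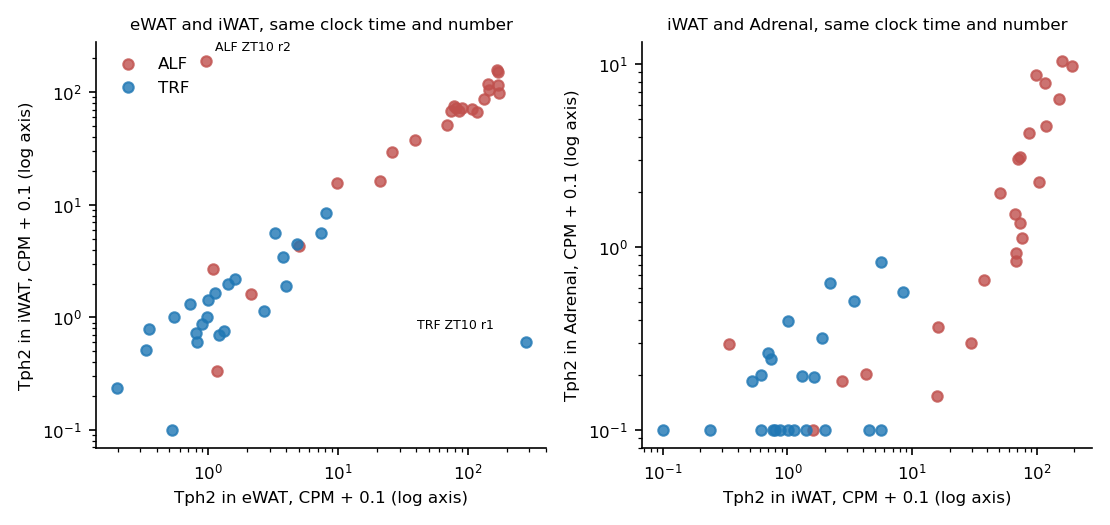
Tph2 in pairs of libraries with the same feeding group, clock time and replicate number, as CPM + 0.1 on log axes, for eWAT against iWAT (left) and iWAT against adrenal gland (right). ALF (red) and TRF (blue) pairs fall along 1 band at left except the 2 marked pairs at ZT10, and at right the ALF pairs rise together.

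Tph1 and Ddc were lower than Tph2 in ALF white fat. Per kb of exon, ALF eWAT held 27.8 ± 21.8 CPM of Tph2 (SD, n = 24) but 0.0674 ± 0.0484 of Tph1 and 0.0803 ± 0.0773 of Ddc. ALF iWAT held 24.3 ± 18.2 CPM per kb of Tph2, 0.246 ± 0.162 of Tph1 and 0.161 ± 0.111 of Ddc. In TRF iWAT Tph2 (0.646 ± 0.722) and Tph1 (0.562 ± 0.343) differed by less than their SD. Of the neuron markers, the synapse gene Snap25 had ALF medians of 0.0695 CPM in eWAT and 0.0826 in iWAT. Rbfox3, from the same list, was higher, with ALF medians of 0.237 CPM in eWAT (0.0582 to 12.3) and 0.471 in iWAT (0.0762 to 1.46). Its TRF medians were 0.586 and 0.795 CPM. Adipocyte markers as a set went opposite ways in the depots. Of all genes, 59.9% were called in eWAT and 66.6% in iWAT, in either direction. In eWAT 8 of 10 rose and 1 fell (median log2 fold change 0.43, all genes 0.01). In iWAT none rose and 8 of 10 fell (median -0.54, all genes 0.02). Lep, on the same list, had lower medians in TRF in both depots. They were 6470 CPM in ALF and 2510 in TRF in eWAT, and 5920 and 715 in iWAT. Macrophage markers fell in eWAT (9 of 10, median -1.71), whereas in iWAT 2 rose and 1 fell of 10. Skeletal muscle markers, which rose in iWAT, and mast cell markers are given with the other fat genes further on. The part of these cells in the Tph2 values was not tested.

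The genes whose levels followed Tph2 most closely over the ALF libraries, by the lower rho of the 2 depots among 13866 genes, were Tfr2, Hp, Gk, Ubd and Itgad. Their lower rho values were 0.930, 0.929, 0.920, 0.920 and 0.914, over 24 libraries in each depot. Tfr2 encodes transferrin receptor 2, Hp the haemoglobin-binding protein haptoglobin, Gk glycerol kinase, Ubd a ubiquitin-like protein and Itgad a leukocyte integrin chain. Itgad had medians of 18.4 CPM in ALF and 0.643 in TRF in eWAT, and 57.7 and 1.13 in iWAT. For Tfr2 these were 17.5 and 1.18 CPM, then 21.0 and 1.37. Gk moved least of the 5, with log2 fold changes of -0.48 ± 0.23 in eWAT and -0.76 ± 0.11 in iWAT, which are descriptions like that of Tph2.

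For the remaining pairs of gene and tissue, the mean level over the day was tested with edgeR and called at an adjusted p under 0.05. The filter on low counts was passed by 86 of 176 pairs of the 8 genes and 22 tissues, and without Tph2 in white fat 84 were tested. Of these 23 were called, 13 higher and 10 lower in TRF, which is 27.4%, beside 20.1% of all gene by tissue tests. The calls fell in 9 tissues, 6 of them in the adrenal gland and 4 in iWAT.

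In the adrenal gland 6 of 6 members tested were called higher in TRF, beside 32.5% of all genes called. They include the chain from tyrosine to adrenaline. The calls of Pnmt, Ddc and Slc18a1 depended on the libraries used, as given below. Th (chromosome 7, 142892779 to 142899995) ranged from 354 to 3130 CPM in ALF with a median of 549, and from 544 to 3520 in TRF with a median of 1680. All TRF libraries but 1 lay above the ALF median, and the mean was higher in TRF at 12 of 12 clock times. Its log2 fold change was 1.31 ± 0.19 (edgeR, adjusted p = 4.1e-06). Dbh (chromosome 2, 27165507 to 27183204) ranged from 459 to 1920 CPM in ALF, median 677, and from 836 to 2400 in TRF, median 1560. Its log2 fold change was 0.98 ± 0.13 (edgeR, adjusted p = 1.3e-06), with 17 ALF libraries below every TRF library.

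The decarboxylase Ddc rose less, by 0.34 ± 0.09 (edgeR, adjusted p = 0.0022), from a median of 94.6 CPM to 114. Slc18a1, which loads the vesicles, rose by 0.48 ± 0.09 (adjusted p = 7.1e-05), and every TRF library lay above the ALF median of 98.4 CPM. Maoa rose by 0.48 ± 0.07 (adjusted p = 1.4e-06), from a median of 219 CPM to 300. Pnmt went from 88.6 to 1040 CPM in ALF, median 279, and from 158 to 1500 in TRF, median 416, with a log2 fold change of 0.56 ± 0.21 (adjusted p = 0.036). The highest ALF values of Th, Dbh and Pnmt were all in the library at ZT0, replicate 1.

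Leaving out any 1 of the 12 clock times kept the calls of Th, Dbh, Ddc, Slc18a1 and Maoa. Pnmt lost its call in 8 of the 12, with adjusted p up to 0.12, and without either replicate. Without replicate 1, Ddc (adjusted p = 0.66) and Slc18a1 (0.17) were not called.

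**Figure D4:**
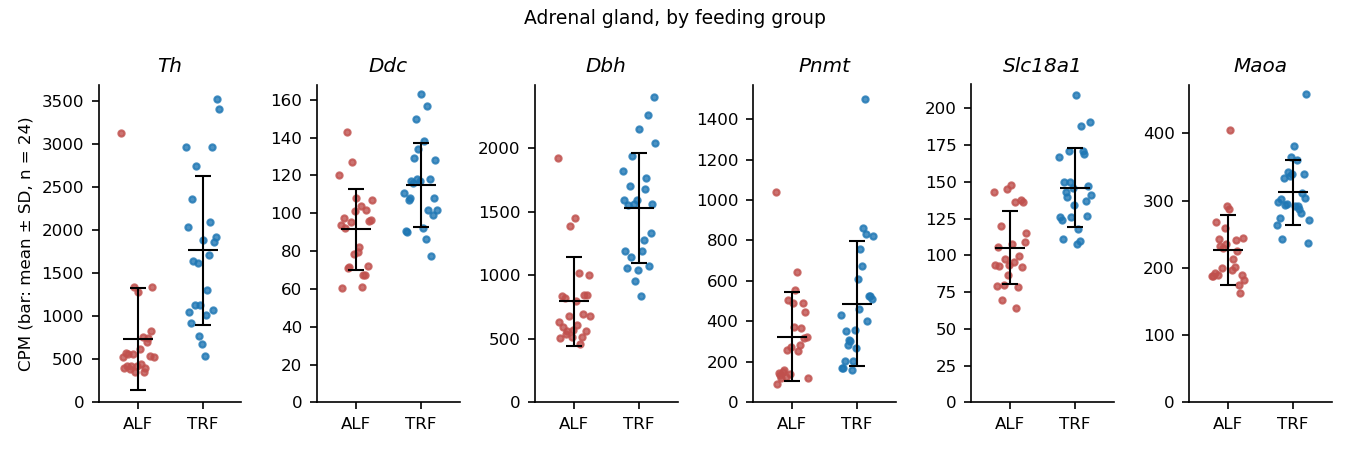
CPM of 6 members in each adrenal library, ALF in red and TRF in blue, with the mean and SD as black bars (n = 24 each) and axes from 0. Th and Dbh show the widest separation of the groups, and the ALF library with 3130 CPM of Th also has the highest Dbh and Pnmt of its group.

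Other pathway genes moved in both directions in the adrenal gland, and the cells that express them there were not tested. Slc18a2, the vesicular transporter known from neurons and also present in chromaffin cells, rose by 1.09 ± 0.13 (edgeR, adjusted p = 1.7e-07), and the vesicle cytochrome Cyb561, which recycles ascorbate for Dbh, by 0.27 ± 0.07 (adjusted p = 0.0027). Pcbd1, which recycles the pterin cofactor of Th and the tryptophan hydroxylases, rose by 0.37 ± 0.09 (adjusted p = 0.0024), while Spr, a synthesis enzyme of that cofactor, fell by 0.17 ± 0.05 (adjusted p = 0.0092). Of the other cofactor genes, Gch1 rose by 0.52 ± 0.09 (edgeR, adjusted p = 6.6e-05) and Qdpr by 0.24 ± 0.04 (adjusted p = 8.1e-05). The dopamine receptor Drd2 rose by 0.70 ± 0.15 (adjusted p = 0.00043) and the serotonin receptor subunit Htr3b by 0.92 ± 0.36 (adjusted p = 0.046). The serotonin transporter Slc6a4 rose by 0.35 ± 0.12 (adjusted p = 0.026), and the amino acid transporter Slc7a5 fell by 0.32 ± 0.07 (adjusted p = 0.00033). Slc22a3 (-0.57 ± 0.16) and the receptors Htr1b (-0.67 ± 0.19) and Adra1b (-0.43 ± 0.15) were also lower, with adjusted p of 0.0054, 0.0069 and 0.029.

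Markers of chromaffin cells and sympathetic neurons were also higher in the adrenal gland. Of these, 7 of 9 rose and none fell (median 0.50, all genes 0.00), beside 32.5% of all genes called in either direction. Their summed level had a median of 12700 CPM in ALF (8720 to 28100) and 25800 in TRF (18500 to 43900). Of 7 adrenal cortex markers 1 fell and none rose, at a summed median of 55700 CPM in ALF (45200 to 68400) and 55500 in TRF (41100 to 63900). Chgb, a granule protein, went from a median of 5930 CPM to 14900. Of 5 neuron markers 3 rose. Whether the medulla made up a different share of the sampled glands was not tested.

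In the heart Dbh was lower in TRF, while Ddc (-0.24 ± 0.11, edgeR, adjusted p = 0.08) and Pnmt (-0.16 ± 0.15, adjusted p = 0.46) were not called. Dbh ranged from 2.65 to 5.97 CPM in ALF hearts, median 4.51, and from 1.06 to 4.30 in TRF, median 2.25. Every TRF library lay below the ALF median, and 17 of 24 below every ALF library. The log2 fold change was -0.89 ± 0.11 (edgeR, adjusted p = 7.6e-08, beside 31% of heart genes called), lower at 12 of 12 clock times. Th had no count in 23 of 24 heart libraries of each group. Summed chromaffin and sympathetic markers had a median of 8.18 CPM in ALF hearts (5.29 to 9.96) and 8.07 in TRF (6.66 to 9.31), and Chga, a granule protein of chromaffin cells, had no count in any heart library. The monoamine transporter Slc22a3 fell by 0.38 ± 0.04 (adjusted p = 4e-09), the receptor Adra1b by 0.52 ± 0.07 (adjusted p = 4e-07) and Maob by 0.26 ± 0.03 (adjusted p = 1.6e-08).

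Liver Maoa fell by 1.10 ± 0.10 (edgeR, adjusted p = 2.1e-09, beside 21.1% of liver genes called). It ranged from 6.17 to 17.3 CPM in ALF, median 12.2, and from 2.91 to 9.91 in TRF, median 5.82, so that 19 of 24 ALF libraries lay above every TRF library. Maob, the sister enzyme, fell by 0.45 ± 0.08 (adjusted p = 0.00017). Ddc rose in liver by 0.31 ± 0.09 (adjusted p = 0.0071) and Slc18a1 fell by 0.30 ± 0.08 (adjusted p = 0.0039). Both of these lost their calls without either replicate, with adjusted p up to 0.24 and 0.17.

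In muscle Tph1 (chromosome 7, 46644641 to 46672537) rose by 1.12 ± 0.16 (edgeR, adjusted p = 9.4e-06, beside 29.2% of muscle genes called). It ranged from 1.25 to 7.73 CPM in ALF, median 2.42, and from 2.48 to 12.5 in TRF, median 6.13, and all 24 TRF libraries lay above the ALF median. Without replicate 1 the adjusted p was 0.10. Of 5 mast cell markers tested 4 rose (median 0.41, all genes 0.00), at a summed median of 19.9 CPM in ALF (10.9 to 29.2) and 24.9 in TRF (16 to 62.2). The part of mast cells in the Tph1 value was not tested.

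Other members were called in white fat too, where most genes were. In iWAT, 4 of 4 tested members were called, beside 66.6% of all genes. With so many genes called, this count does not set the members apart. Tph1 rose by 1.15 ± 0.22 (edgeR, adjusted p = 2.8e-05), from a median of 1.34 CPM to 2.59, Ddc by 0.90 ± 0.18 (adjusted p = 6e-05), from 0.599 to 1.22, and Slc18a1 by 0.62 ± 0.16 (adjusted p = 0.0011), from 1.61 to 2.67. Maoa fell by 0.78 ± 0.12 (adjusted p = 1.3e-06), from 54.2 to 28.7 CPM, with 16 ALF libraries above every TRF library. Without replicate 1, Ddc, Slc18a1 and Maoa lost their calls in iWAT, with adjusted p of 0.14, 0.35 and 0.066.

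In eWAT, where 59.9% of genes were called, Maoa fell by 0.49 ± 0.08 (edgeR, adjusted p = 8.7e-06), from a median of 79.9 CPM to 52.7, and 14 TRF libraries lay below every ALF library. Slc18a1 fell there by 1.24 ± 0.25 (adjusted p = 1e-04), from 1.76 to 0.577 CPM, opposite in sign to iWAT. Neither call held without replicate 1, with adjusted p of 0.076 and 0.062, and both held without the 2 libraries at ZT10 (-0.54, adjusted p = 1.1e-07, and -1.45, adjusted p = 1.3e-06). Tph1 rose by 0.69 ± 0.26 (adjusted p = 0.020), from 0.316 to 0.625 CPM, and lost its call without ZT6. The serotonin transporter Slc6a4 rose in both depots, by 1.39 ± 0.27 in eWAT (adjusted p = 5.2e-05) and 0.86 ± 0.16 in iWAT (adjusted p = 1.8e-05), and so did Slc18a2, by 0.93 ± 0.21 (adjusted p = 0.00036) and 0.56 ± 0.14 (adjusted p = 0.00071).

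Mast cell markers were higher too: 6 of 7 tested rose in eWAT (median 0.62) and 8 of 9 in iWAT (median 0.72). Of all genes, 59.9% were called in eWAT and 66.6% in iWAT, in either direction. Their summed median went from 57.7 CPM (43.5 to 94.5) to 84.4 (42.9 to 135) in eWAT, and from 173 (101 to 305) to 283 (153 to 529) in iWAT. Skeletal muscle markers also differed in iWAT, where 5 of 6 rose (summed median 179 CPM in ALF, 22.0 to 5930, and 2210 in TRF, 9.69 to 12900), and all 7 lymphocyte markers rose. The part of these cells was not tested.

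The remaining calls were smaller or less stable. In jejunum, where 45.5% of genes were called, Maoa fell by 0.39 ± 0.09 (edgeR, adjusted p = 0.0011) and Slc18a1 by 0.28 ± 0.07 (adjusted p = 0.0017). Maoa lost its call with a correction for GC content (adjusted p = 0.079) and without replicate 2 (0.099), and Slc18a1 without replicate 1 (0.077). Th fell in duodenum by 0.64 ± 0.20 (adjusted p = 0.0092, beside 41.5% of genes), at medians of 0.631 CPM in ALF and 0.388 in TRF, and lost its call with the GC correction (adjusted p = 0.073). In hypothalamus, where 32.6% of genes were called, Tph2 fell by 0.60 ± 0.24 (adjusted p = 0.047) and Maoa rose by 0.08 ± 0.02 (adjusted p = 0.011). The first turned to 0.07 ± 0.27 without replicate 1, and the second to -0.02 ± 0.02 with the GC correction. Tph2 had a mean of 0.561 CPM in hypothalamus. Its highest value there, 3.54 CPM, was in the only ALF library at ZT6, which is replicate 1.

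No member was called in the other 13 tissues. In brown fat and DMH no gene of any kind was called, and 1 gene each was called in the suprachiasmatic nucleus, amygdala and arcuate nucleus, against 26 in the dentate gyrus.

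Of the other pathway genes, those for breakdown and further metabolism were called higher in 22 and lower in 19 of 116 tests over all tissues, and those for cofactor supply in 22 and 20 of 185. Transport and storage genes were called higher in 22 and lower in 13 of 118 tests, adrenergic receptors in 10 and 11 of 132, transcription factors of aminergic cells in 8 and 5 of 104, serotonin receptors in 3 and 4 of 88, and dopamine receptors in 2 and 1 of 25. All genes were called higher in 10.2% and lower in 9.88% of tests. Maob was called in the most tissues, 6 higher and 7 lower of 22. Adrb3, the adrenergic receptor of adipocytes, rose in eWAT by 1.28 ± 0.26 (edgeR, adjusted p = 8.4e-05) and in iWAT by 0.57 ± 0.19 (adjusted p = 0.0077), and Adra1a fell in iWAT by 0.86 ± 0.13 (adjusted p = 1.7e-06). Pcbd1 fell in iWAT by 2.00 ± 0.24 (adjusted p = 3.4e-08).

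The next comparison asked whether the response depended on the feeding window. Within ZT14 to ZT22 20 of 84 tests were called, beside 14.8% of all genes, and within ZT0 to ZT12 17, beside 11.3%. The difference between the windows was called for no member by edgeR, beside 0.947% of all genes, while 13 of the 84 tests had an unadjusted p under 0.05. Under the other settings run for it, all with edgeR, no member was called either, and 5 to 17 had an unadjusted p under 0.05. Adrenal Th rose by 1.62 ± 0.29 in the window with food (adjusted p = 0.00026) and by 1.08 ± 0.25 outside it (adjusted p = 0.0032). Heart Dbh fell by 0.90 ± 0.19 (adjusted p = 0.00054) and 0.88 ± 0.14 (adjusted p = 2.3e-05). Without replicate 1 the window calls of adrenal Th (adjusted p = 0.099 and 0.36) and heart Dbh (0.094 and 0.23) were lost. Lung Maoa fell by 0.34 ± 0.09 (adjusted p = 0.041) in the window with food, a call lost in 5 of 7 alternatives, with adjusted p up to 0.85.

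A 24 h rhythm was called for 13 of 84 tests in ALF, beside 12.4% of all genes, and for 26 in TRF, beside 28% of all genes. Ddc was called in 7 of 19 tissues in each group: duodenum, jejunum, ileum, both parts of the kidney, liver and lung. The calls of both kidney parts and liver held in both groups, and those of jejunum and ileum in TRF, under every alternative run for them. The others were lost without 1 replicate number or either, with adjusted p up to 0.47, and that of duodenum in ALF also with DESeq2 size factors (0.054) and with no filter (0.056). In kidney cortex its mean per clock time ran from 37.4 CPM at ZT14 to 134 at ZT2 in ALF, and from 46 at ZT16 to 139 at ZT6 in TRF. The fitted amplitude (log2, from mean to peak) was 0.74 ± 0.06 in ALF and 0.81 ± 0.06 in TRF, and the peak fell at ZT1.86 ± 0.331 h and ZT4.12 ± 0.303 h. In liver the peaks were at ZT22.9 ± 0.548 h in ALF and ZT23.7 ± 0.482 h in TRF, with amplitudes of 0.70 ± 0.10 and 0.79 ± 0.10, and the groups' rhythms did not pass the test of their difference (edgeR, adjusted p = 0.69).

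Maoa rhythms in the gut peaked near the end of the light phase. In duodenum its mean ran from 265 CPM at ZT22 to 2120 at ZT12 in TRF, and from 405 at ZT22 to 1080 at ZT12 in ALF. The amplitudes were 0.94 ± 0.11 and 0.45 ± 0.11, a difference that did not pass (edgeR, adjusted p = 0.20). Slc18a1 was rhythmic in duodenum and jejunum in both groups, with peaks from ZT9.01 to ZT12.3. Without replicate 1 the ALF calls of Slc18a1 in both (adjusted p = 0.071 and 0.082) and of Maoa in duodenum and jejunum (up to 0.21 and 0.09) were lost, while the TRF calls held. Tph1 was called in jejunum in both groups, with an amplitude of 0.24 ± 0.07 in ALF and 0.39 ± 0.07 in TRF. The ALF call was lost without either replicate (adjusted p up to 0.61) and the TRF call without replicate 1 (0.074). In the adrenal gland Pnmt was called rhythmic in TRF, with an amplitude of 0.95 ± 0.19 and a peak at ZT16.7 ± 0.762 h (edgeR, adjusted p = 0.00094), while its difference from ALF did not pass (adjusted p = 0.75). That call was lost without replicate 2 (adjusted p = 0.07).

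The rhythm itself differed between the groups for 3 of 84 tests, beside 1.88% of all genes. Kidney cortex Ddc was one of them (edgeR, adjusted p = 0.0081), with the later peak in TRF given above. Jejunum Ddc was another (adjusted p = 0.040), with amplitudes of 0.37 ± 0.07 in ALF and 0.64 ± 0.07 in TRF and peaks at ZT2.81 ± 0.720 h and ZT4.47 ± 0.418 h. Jejunum Maoa was the third (adjusted p = 0.015), with amplitudes of 0.49 ± 0.08 and 0.97 ± 0.08. Its mean went from 811 to 2320 CPM over the day in ALF and from 450 to 1960 in TRF. None of the 3 was called when either replicate was left out.

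**Figure D5:**
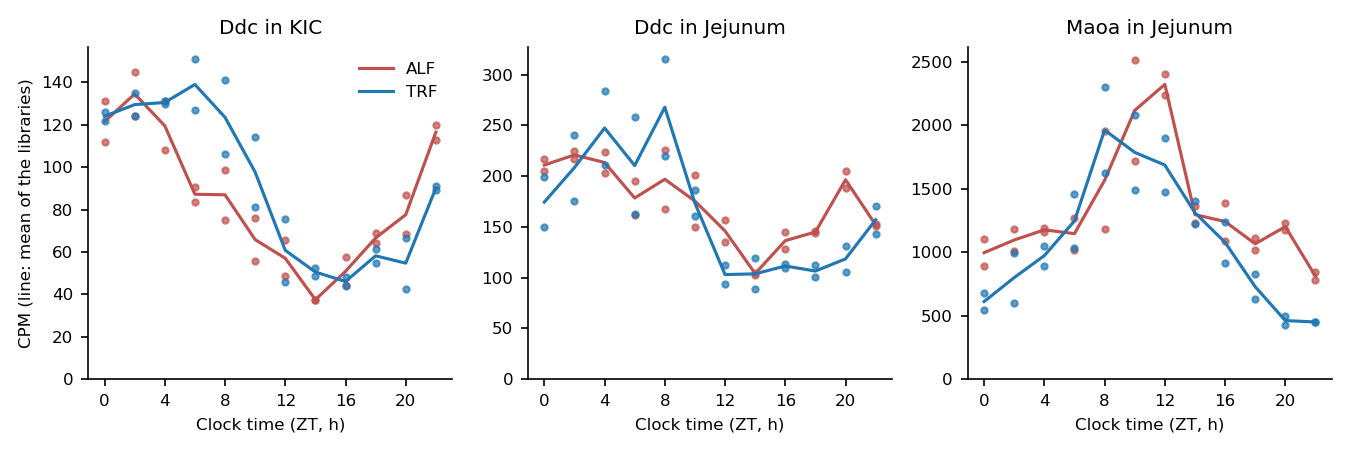
CPM by clock time in each library (points) and the mean per clock time (lines) for Ddc in kidney cortex (KIC) and jejunum and Maoa in jejunum, ALF in red and TRF in blue, axes from 0. In kidney cortex the TRF line falls later than the ALF line, and Maoa in jejunum reaches 450 CPM at ZT22 in TRF against 811 in ALF.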

How the data were processed

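Poly(A) RNA of 1035 libraries was measured with a stranded mRNA kit, per the labels' protocols. The authors deposited 1 table of expected counts per gene symbol, with 1 column per library and values in steps of 0.5. Of these, 29.62% were not whole, and they were rounded. The submitters' processing notes list CASAVA 1.8, FastQC 0.11.8, STAR 2.5.3a, HOMER 4.10 and the builds mm10 and GRCm38, with no role or order. The labels list 1677 sequencing runs, and how runs were combined, the strand setting and the treatment of reads shared by genes are not given in the sources used here. Of 24537 rows, 4 with repeated names were left out.

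CPM is the rounded count per M (mega) counts of the library total times its TMM factor within the tissue, and differences between tissues also depend on that scaling. Each tissue was fitted alone with edgeR 4.0.16 (filterByExpr, quasi-likelihood test, R 4.3.3), with Benjamini-Hochberg adjustment over all genes of the tissue and a threshold of 0.05. The mean level was fitted with clock time as a factor, the windows as separate feeding effects for ZT0 to ZT12 and ZT14 to ZT22, and the rhythm as a 24 h sine and cosine per group, with amplitude and peak from limma 3.58.1. Alternatives were DESeq2 1.42.0, its size factors, no filter, a replicate block, GC offsets, the number of runs as a term, and left-out replicates, clock times or libraries. The scripts were tested on simulated data. Relations used 100000 permutations of the libraries of a group over all clock times. Exon lengths and GC content came from GENCODE vM21, gene positions and promoters from RefSeq GRCm38.p6.

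The members, gene lists and tests were chosen with earlier results of these data known. Named genes are the 8 members, up to 4 other genes per pathway list that were called in the most tissues, the 5 genes that followed Tph2 most closely in ALF white fat, and the 3 genes closest to each member over tissues. Gch1 and Qdpr, of the cofactor list, are also named for the adrenal gland. Marker genes come from lists of cell types. Some genes of these lists are not reported here by name. Replicate numbers come from the labels. Over 245 comparisons of same-numbered ALF and TRF libraries the correlation of deviations had a median of 0.0265 (-0.779 to 0.799), so the numbers were not taken to pair the groups.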

Additional observations from a re-analysis of the deposited data

Results flagged for a closer look

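The test of whether the 24 h rhythm differed between ALF and TRF passed for 3 of 84 pairs of gene and tissue, beside 1.88% of all genes. All 3 calls were lost when either replicate was left out. These were Ddc in kidney cortex (edgeR, adjusted p = 0.0081), Maoa in jejunum (adjusted p = 0.015) and Ddc in jejunum (adjusted p = 0.04). Kidney cortex Ddc peaked at ZT1.86 in ALF and ZT4.12 in TRF. Maoa in jejunum had amplitudes of 0.49 and 0.97 (log2), and Ddc in jejunum of 0.37 and 0.64.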

How the results depend on the processing

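The number of members called for the mean level was 23, and 8 to 18 when 1 replicate number was left out, and 20 to 29 under the 6 alternatives that kept every library. With 1 replicate left out, the calls numbered 0 to 17 for ZT0 to ZT12, 2 to 14 for ZT14 to ZT22, 3 to 8 for the ALF rhythm, 14 to 15 for the TRF rhythm and 0 for the rhythm difference. With no filter on low counts the rhythm differed for 5 members. The value for Tph2 in hypothalamus turned to 0.07 over the day and 0.05 for ZT0 to ZT12 without replicate 1 (-0.67 and -1.03 without replicate 2), and that for Maoa there to -0.02 with GC offsets; the cause was not tested. The log2 fold change of Tph2 without 1 replicate was -5.87 to -3.77 in eWAT and -6.23 to -4.16 in iWAT. With the replicate number as a block it was -5.00 and -5.27, the mean-level count stayed at 23, the windows at 17, 20 and 0 and the rhythms at 13, 26 and 3, and all 102 single calls held. DESeq2 and the number of runs were run for the mean level only. Shallow libraries, from 2.26 M counts, limit genes near 1 CPM.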

Other observations

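Chosen after the values were seen, 4 ALF adrenal libraries had over 1000 CPM of Th, beside an ALF median of 549. They were ZT0 replicate 1 (3130), ZT8 replicate 2 (1340), ZT12 replicate 1 (1280) and ZT22 replicate 1 (1340). The iWAT libraries with the same labels had 16.1, 1.51, 4.19 and 15.7 CPM of Tph2, all below the ALF median of 69.6. Low Tph2 did not always go with high Th: ZT12 replicate 2 and ZT14 replicate 2 had 0.237 and 2.62 CPM of Tph2 in iWAT, and 617 and 760 CPM of Th in the adrenal gland. No test was run on this, and the labels do not say whether equal numbers mark one mouse.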
